A study of Mus musculus with 39 samples.

Results

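Cultured mouse lung fibroblasts were compared after 2 h with C1q at 10 µg/ml, the middle of 3 doses, and without treatment. The libraries were chosen by their labels alone: the 3 libraries given C1q at 10 µg/ml for 2 h and the 3 untreated libraries of 0 h, 6 of the 39 libraries in the series. The other 33 libraries, in 11 groups of 3, came from the same cells at 1, 10 or 100 µg/ml and 2, 24, 48 or 72 h. All came from WT C57BL/6 mouse lung. Cells with the lineage markers CD45, CD31, EpCAM, CD146 and Ter119 were removed on a magnetic separator. The adherent rest were passaged and kept without serum for 24 h before C1q was added. Neither group carried a transgene or another agent, and age and sex of the mice were not given in the sources used here. The untreated cells were taken at 0 h and no cells without C1q were taken at 2 h, so the effect of C1q and that of 2 more hours in culture, with whatever handling the addition brought, cannot be told apart. Whether the 3 libraries of a group stem from separate cultures or mice is not stated in the labels. All p-values therefore refer to the spread among the libraries, and that spread may be technical.

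C1q is the recognition subunit of classical complement: it binds antibody on targets and starts the cascade, and it also binds apoptotic cells and matrix. Cells answer a stimulus in waves. Immediate early genes, which encode transcription factors such as the FOS, EGR and NR4A families, are switched on from factors already present (SRF with its partners, and CREB, which binds the cyclic AMP response element, CRE). Their products and their feedback inhibitors, such as the dual specificity phosphatases, then shape the next wave of cytokines, growth factors and matrix genes, and many of these transcripts are short-lived.

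RNA was counted at the 5' ends of poly(A) transcripts. The 6 libraries held between 1912679 and 2843730 counts, against 1806106 to 3012518 over all 39. On the first principal component of the 6 libraries, with 42.5% of the variance, the 3 treated libraries lay at 21.2 to 28.5 and the 3 untreated at -29.9 to -22.6. The second, with 18.7%, set replicates 2 and 3 of the treated group apart, at -28.4 and 30.4. The fibroblast markers were abundant, with a summed level over 10 genes of 5761 to 6474 CPM (counts scaled to a common library size by the TMM method) in untreated and 6255 to 6708 in treated libraries. Summed levels of marker lists for other cell types were lower in the treated libraries for myeloid (277 to 300 CPM untreated, 224 to 233 treated, 16 genes), endothelial (94.99 to 106 and 72.1 to 91.8, 10 genes), epithelial (537 to 635 and 413 to 526, 12 genes) and mesothelial cells (338 to 370 and 269 to 319, 7 genes). Mural markers went the other way, at 119 to 136 and 145 to 153 CPM (9 genes, with Higd1b at 0 in the untreated libraries), and lymphocyte and erythroid markers reached at most 3.15 and 0.852 CPM in sum. The part of these cells in the results below was not tested, and in bulk RNA fewer cells of a type and less RNA per cell cannot be told apart.

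Against untreated cells, 1836 of 14419 genes tested, or 12.7%, were called by edgeR's quasi-likelihood test at an adjusted p (Benjamini-Hochberg) under 0.05. Of these, 1101 rose (7.64% of all tested) and 735 fell (5.1%). Counts of list members against untreated cells, given below, are to be read beside these shares. The 3 treated libraries lay wholly above or below the 3 untreated ones for 29.5% of all tested genes, and did so for 1060 of the genes that rose and 710 of those that fell. Most changes were small: the median log2 difference was 0.65 among rises and -0.63 among falls, 254 rises and 139 falls reached a log2 size of 1, and 44 rises and 14 falls reached 2. The rises thus held more of the large changes, as the plot of all tested genes shows.

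**Figure D1:**
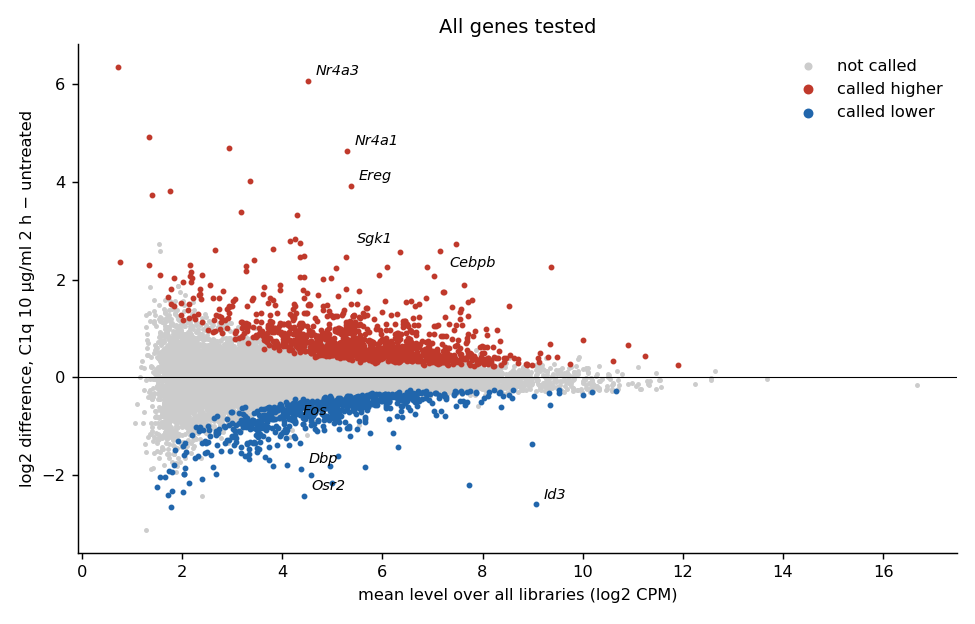
Log2 difference between C1q at 10 µg/ml for 2 h and untreated cells (vertical axis) against the mean log2 CPM over all libraries (horizontal axis), 1 point per gene tested, coloured by call. Of the genes called, 44 lie above 2 and 14 below -2, with Nr4a3 at 6.07 and Id3 at -2.59.

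The 2 largest rises under the naming rule, which asks for a mean log2 CPM of at least 3, were of NR4A orphan nuclear receptors, transcription factors that need no known natural ligand and are classical immediate early genes. Nr4a3 stood at 2.00, 1.58 and 1.28 CPM in the untreated libraries and at 110, 126 and 104 CPM in the treated ones, a fitted rise of 67.4-fold (log2 6.07 ± 0.24 SE, edgeR adjusted p = 3.48e-24). Nr4a1 stood at 4.81, 5.26 and 6.81 CPM untreated and at 139, 118 and 168 CPM treated, a rise of 24.9-fold (log2 4.64 ± 0.27, edgeR adjusted p = 3.91e-18). Both rested on few untreated counts, 11 for Nr4a3 and 38 for Nr4a1 over the 3 libraries. For both every treated library was far above every untreated one, where the naming rule itself requires no overlap. The third member, Nr4a2, moved from 5.21, 4.74 and 6.81 CPM to 21.01, 31.03 and 31.7 CPM, a log2 difference of 2.28 ± 0.26. Its groups did not overlap either.

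NR4A genes are textbook targets of CREB, and their promoters are shown for the CREB motif. In these windows, the 250 bases before each RefSeq start on GRCm38.p6, capitals mark the short CRE (TGACG, or CGTCA on the other strand). The windows are chr15:101266596-101266845 on the plus strand for Nr4a1, chr2:57124004-57124253 on the minus strand for Nr4a2 and chr4:48045055-48045304 on the plus strand for Nr4a3.
Nr4a1: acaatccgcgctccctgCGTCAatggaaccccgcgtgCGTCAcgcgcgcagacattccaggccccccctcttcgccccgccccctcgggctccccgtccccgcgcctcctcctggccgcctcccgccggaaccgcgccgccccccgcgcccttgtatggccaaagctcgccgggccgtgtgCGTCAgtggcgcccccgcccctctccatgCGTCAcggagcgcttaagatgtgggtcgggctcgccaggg
Nr4a2: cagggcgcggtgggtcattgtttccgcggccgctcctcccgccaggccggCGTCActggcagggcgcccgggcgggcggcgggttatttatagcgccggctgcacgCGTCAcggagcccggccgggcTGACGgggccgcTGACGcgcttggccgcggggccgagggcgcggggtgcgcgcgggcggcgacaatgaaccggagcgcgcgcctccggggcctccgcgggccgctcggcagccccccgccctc
Nr4a3: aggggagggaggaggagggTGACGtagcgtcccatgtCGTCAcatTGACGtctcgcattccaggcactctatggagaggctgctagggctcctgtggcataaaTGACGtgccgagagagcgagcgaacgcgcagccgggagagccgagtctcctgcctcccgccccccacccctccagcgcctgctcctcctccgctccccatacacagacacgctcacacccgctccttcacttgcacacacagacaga
Each of the 3 windows held 4 short CREs and none held the full CRE (TGACGTCA, which contains the short one). In Nr4a1 they began 233, 213, 69 and 40 bases before the start, in Nr4a2 200, 144, 123 and 111, and in Nr4a3 231, 213, 205 and 147. A match is a run of letters and not a measured binding site.

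Over promoter windows of 300 bases (250 before to 50 after the start, both strands searched), a short CRE stood in 20.8% of all 32851 RefSeq windows and in 29.3% of those of the genes tested. The share was 33.3% for genes that rose, 35.3% for rises with a log2 size of at least 1, 27.6% for genes that fell and 30.8% for falls with a log2 size of at least 1. In the list of immediate early transcription factors it stood in 23 of 32 windows, or 71.9%. These windows belonged to 23 of the 30 members, with 4 of the matching windows from Csrnp1 and 3 from Egr2. Egr1, Egr3, Fosl1 and Myc were among the members without a window. The CArG box, the motif of SRF, stood in 1.63% of all windows, 1.34% of those of tested genes, 2.78% of the larger rises and 15.6% of the immediate early windows. The NF-kB site stood in 10.3% of windows of tested genes, 15.1% of the larger rises and 25.0% of the immediate early windows. The AP-1 motif TGANTCA, that of FOS and JUN dimers, stood in 7.81% of all windows, 5.41% of those of tested genes and 11.5% of the larger rises. The E-box CACGTG stood in 9.43% of windows of tested genes, 12.8% of all rises and 10.3% of the larger rises. Among the larger falls the shares were 0.769% for the CArG box, 10.0% for the NF-kB site, 5.38% for AP-1 and 9.23% for the E-box. The immediate early shares of the CArG box and NF-kB site rest on 5 and 8 of 32 windows. These shares are descriptions, and windows of 1 gene share sequence.

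The list of immediate early transcription factors holds 30 genes, among them some that encode other proteins, such as Arc. Of the 30, 29 could be tested: 28 rose and 1, Fos, fell. Their median log2 difference was 1.497, against -0.03 over all genes. Fosb, which encodes a partner of JUN, was at 2.00, 0.526 and 1.28 CPM untreated and 38.5, 28.3 and 40.9 CPM treated (log2 4.70 ± 0.36, edgeR adjusted p = 2.27e-14). Egr3, a zinc finger factor, was at 1.20, 1.05 and 3.83 CPM untreated and 28.01, 46.8 and 29.1 CPM treated (log2 4.02 ± 0.33). In both genes every treated library was far above every untreated one, and for Egr3 the naming rule requires no overlap. Fosl1, another FOS family member, moved from 11.2, 8.42 and 5.96 to 76.0, 83.8 and 102 CPM (log2 3.33 ± 0.19), and Atf3, a stress-responsive repressor, from 5.21, 4.74 and 3.41 to 24.9, 25.5 and 33.2 CPM (log2 2.62 ± 0.27). Arc, a cytoskeletal immediate early gene, had only 3 counts over the untreated libraries and 46 over the treated ones, a ratio per total count of 14.8 with an exact 95% interval of 4.76 to 74.4, counting error only.

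Other members rose less. Myc, the growth-promoting factor, was at 18.8, 13.7 and 13.2 CPM untreated and 61.6, 58.4 and 73.1 CPM treated (log2 2.06 ± 0.20). Egr1, the prototype of its family, was at 48.5, 41.6 and 41.3 CPM and 102, 106 and 113 CPM (log2 1.27 ± 0.12), and Jun, at 76.2, 71.6 and 79.2 CPM and 110, 102 and 114 CPM, had the smallest rise of the list (log2 0.52 ± 0.11). Fos itself, whose transcript is known to appear and vanish early after a stimulus, was at 16.03, 15.3 and 14.1 CPM untreated and 9.80, 6.95 and 7.16 CPM treated, a fall of log2 -0.89 ± 0.21 (edgeR adjusted p = 0.00294). All 3 treated libraries were below all 3 untreated ones, in the opposite direction to Fosb.

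The promoter of Fosb is shown beside that of Dusp5, the leading feedback gene below, since the motifs they hold differ. Fosb, chr7:19310046-19310295 on the minus strand, held 1 short CRE 60 bases before the start and 1 NF-kB site 188 bases before it (both in capitals). Dusp5, chr19:53528895-53529144 on the plus strand, held 2 adjacent CArG boxes, 82 and 72 bases before the start, and 1 short CRE 55 bases before it.
Fosb: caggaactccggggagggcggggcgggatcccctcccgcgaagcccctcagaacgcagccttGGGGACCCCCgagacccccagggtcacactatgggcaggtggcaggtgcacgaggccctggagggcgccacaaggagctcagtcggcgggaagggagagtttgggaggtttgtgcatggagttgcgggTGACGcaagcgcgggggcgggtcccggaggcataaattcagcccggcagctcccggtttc
Dusp5: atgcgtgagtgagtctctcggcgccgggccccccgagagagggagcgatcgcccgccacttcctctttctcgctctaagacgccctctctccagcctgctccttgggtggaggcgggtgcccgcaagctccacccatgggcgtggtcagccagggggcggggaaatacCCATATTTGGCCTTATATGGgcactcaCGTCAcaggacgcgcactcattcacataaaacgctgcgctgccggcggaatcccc

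**Figure D2:**
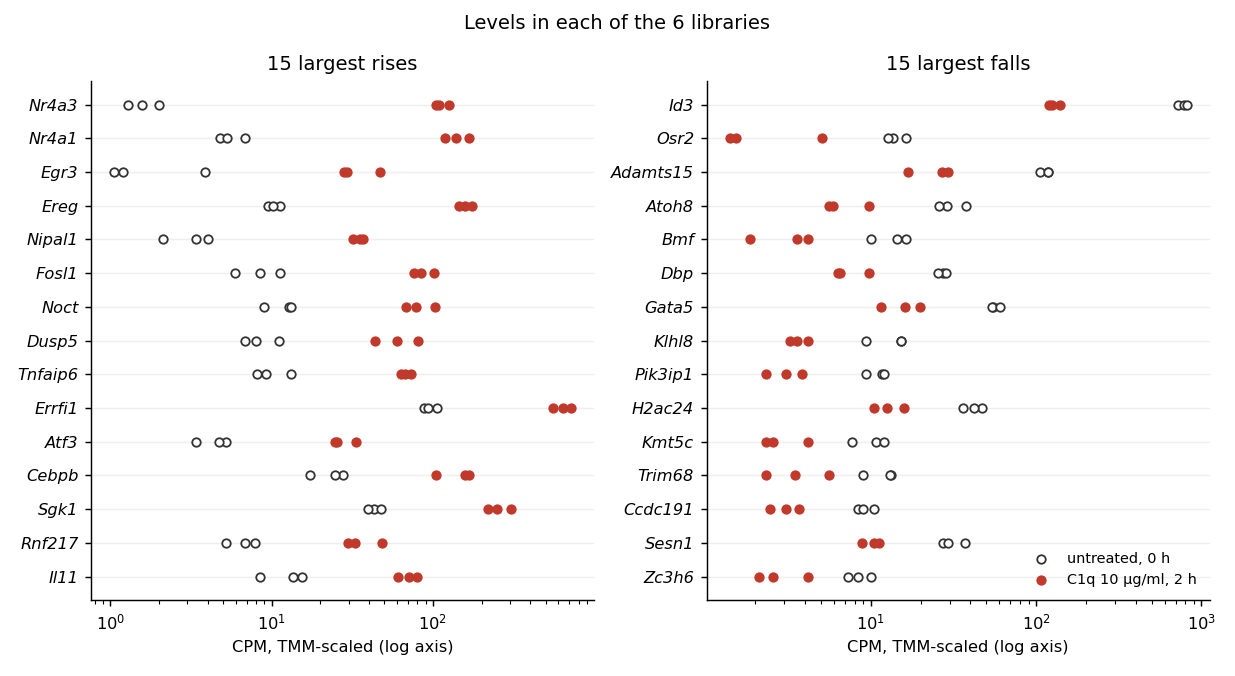
CPM (log axis) in each of the 6 libraries for the 15 largest rises (left) and the 15 largest falls (right) that the naming rule admits, with open circles for untreated and filled circles for C1q at 10 µg/ml for 2 h. The groups do not overlap for any of the 30 genes, which the rule requires.

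Feedback inhibitors of growth factor signalling were among the rises: 12 of 19 tested members of the ERK feedback list rose and none fell, with a median log2 difference of 0.73. Dusp5, a nuclear phosphatase of ERK, was at 8.02, 6.84 and 11.1 CPM untreated and 59.5, 43.5 and 80.8 CPM treated (log2 2.80 ± 0.23, edgeR adjusted p = 2.60e-13). Errfi1, an inhibitor of the EGF receptor, was at 87.8, 92.6 and 106 CPM untreated and 638, 555 and 719 CPM treated (log2 2.74 ± 0.13, edgeR adjusted p = 5.30e-22). Dusp4 and Dusp6, further ERK phosphatases, rose by log2 2.39 ± 0.24 and 1.77 ± 0.15. Of the EGF receptor and its ligands, 4 of 8 tested rose. Ereg, encoding the ligand epiregulin, led them with 11.2, 9.47 and 10.2 CPM untreated and 157, 174 and 144 CPM treated (15.2-fold, log2 3.93 ± 0.17, edgeR adjusted p = 5.34e-23). Hbegf, another ligand, rose by log2 1.09 ± 0.17 and the receptor Egfr itself by 0.51. The other 4 tested members of this list were not called, among them the ligands Areg (-0.54) and Btc (-0.40).

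The upstream sequence of Errfi1 at 1 of its 2 annotated starts, chr4:150854820-150855069 on the plus strand, is shown since it holds the full 8-base CRE (in capitals), which began 51 bases before the start. It stood in 1.79% of all windows and 2.77% of those of tested genes. For changes with a log2 size of at least 1 the share was 3.97% for rises and 3.85% for falls.
Errfi1: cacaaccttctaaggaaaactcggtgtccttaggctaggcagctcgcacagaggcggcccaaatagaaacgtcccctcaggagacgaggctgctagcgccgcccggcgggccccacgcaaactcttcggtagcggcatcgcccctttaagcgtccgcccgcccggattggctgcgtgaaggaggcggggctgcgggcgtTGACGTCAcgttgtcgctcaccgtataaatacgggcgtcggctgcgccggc

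The cyclic AMP and CREB list, which shares the 3 NR4A genes and Fosb with the immediate early list, had 10 of 18 members higher and none lower. Its other rises were smaller: Gem, a small GTPase, rose by log2 1.63, Cited2, a transcriptional coregulator, by 1.06 and Pde4d, a cyclic AMP phosphodiesterase, by 0.62. Of 18 targets of SRF and YAP, which respond to the actin cytoskeleton, 12 rose and none fell (median 0.50). Thbs1, encoding the matrix glycoprotein thrombospondin 1, was at 524, 430 and 468 CPM untreated and 2164, 2372 and 2312 CPM treated (log2 2.27 ± 0.11). Ankrd1 and Ccn2, both widely used readouts of YAP, rose by 1.49 ± 0.18 and 1.33 ± 0.11. Of the contractile genes of myofibroblasts 3 of 15 rose and none fell, Myh9 by 0.50, Des by 0.43 and Cald1 by 0.26, and Acta2, the defining member, was at 1326, 1278 and 1116 CPM untreated and 1414, 1272 and 1551 CPM treated (log2 0.19 ± 0.12, edgeR adjusted p = 0.36), with overlapping groups. Des and Cald1 lost their calls when libraries were thinned to equal totals or single libraries were left out.

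Of 18 tested chemokines and cytokines, secreted mediators of inflammation, 8 rose, none fell and 10 were not called, with a median of 0.62. Il11, a fibroblast cytokine of the IL-6 family, was at 13.6, 8.42 and 15.3 CPM untreated and 71.4, 79.2 and 60.8 CPM treated (log2 2.47 ± 0.18, edgeR adjusted p = 1.32e-14). Ccl2, which attracts monocytes, was at 72.1, 66.3 and 55.4 CPM untreated and 309, 310 and 305 CPM treated (log2 2.25 ± 0.13), and its neighbour in function Ccl7 rose by the same 2.25 ± 0.16. Il6 rose from 8.02, 6.32 and 5.11 to 26.3, 19.5 and 25.1 CPM (log2 1.86 ± 0.27). The treated libraries lay above the untreated ones for each of these 4 genes, which the naming rule requires for Il11. A promoter window of Il11, chr7:4778142-4778391 on the minus strand, is shown for its AP-1 motif (in capitals), 98 bases before the start, the only motif of those searched in this window. The window of its other annotated start, chr7:4782858-4783107, held no motif of those searched and is not shown.
Il11: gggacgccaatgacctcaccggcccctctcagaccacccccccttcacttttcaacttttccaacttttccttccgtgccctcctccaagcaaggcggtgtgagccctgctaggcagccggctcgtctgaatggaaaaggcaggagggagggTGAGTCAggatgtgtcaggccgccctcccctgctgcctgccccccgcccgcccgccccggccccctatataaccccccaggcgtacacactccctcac
Of the receptors and STAT feedback genes 7 of 20 rose and none fell. Cebpb, a transcription factor of the acute phase response, moved most, from 27.7, 17.4 and 24.7 to 104, 159 and 168 CPM (log2 2.59 ± 0.37). The TWEAK receptor Tnfrsf12a and the IL-33 receptor Il1rl1 followed with 1.55 and 1.39. Socs3, the feedback inhibitor of IL-6 signalling, was at 82.2, 78.9 and 67.7 CPM untreated and 84.7, 90.3 and 121 CPM treated, without overlap, but missed the threshold (log2 0.36 ± 0.13, edgeR adjusted p = 0.0511).

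Of 16 tested NF-kB genes, 6 rose, by log2 differences of 0.57 to 0.77, with Nfkb2 at 0.77, Nfkbiz at 0.74 and the inhibitor Nfkbia at 0.71 ± 0.11. Tnip3, also an inhibitor of NF-kB, fell by 1.09 on the log2 scale, a call lost without untreated replicate 1. No tested member of the interferon-induced list rose: 3 of 19 fell, which were the signalling components Stat2 (-1.20), Irf9 (-0.66, lost without untreated replicate 2) and Irf1 (-0.61). Cxcl10, an interferon-inducible chemokine not on this list, rose by log2 1.46 ± 0.39. Among 12 tested genes of MHC class I none was called, against 12.7% of all genes tested.

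Prostaglandins and hyaluronan are lipid and polysaccharide products that fibroblasts release in inflamed tissue. Ptgs2, encoding the inducible cyclooxygenase COX-2, was at 28.5, 30.5 and 29.4 CPM untreated and 122, 141 and 156 CPM treated (log2 2.24 ± 0.14, edgeR adjusted p = 3.77e-17), and 4 of 15 prostaglandin genes rose in all. Of 10 hyaluronan genes, 7 rose and 1, the hyaluronidase Hyal1, fell (-0.65, lost without untreated replicate 3). Tnfaip6, whose product cross-links hyaluronan, was at 9.22, 13.2 and 8.09 CPM untreated and 63.0, 67.2 and 72.6 CPM treated (log2 2.75 ± 0.17). Has2, the synthase, moved from 24.1, 24.2 and 26.8 to 69.0, 75.5 and 62.4 CPM (log2 1.46 ± 0.13). Has1, a second synthase, was at 2.41, 0 and 0 CPM and then 15.8, 10.7 and 12.3 CPM, 6 counts against 92. The receptor Cd44 rose by 1.24, so that synthesis, cross-linking and binding genes were all among the rises.

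TGF-beta genes rose in part. Of 16 ligands, receptors and SMADs, 6 rose and none fell: Inhba, encoding the activin A subunit, was at 160, 156 and 162 CPM untreated and 593, 625 and 548 CPM treated (log2 1.89 ± 0.10), Tgfb2 rose by 0.80 and Smad3 by 0.76. Of 17 targets 9 rose, among them the transcriptional repressor Snai1 (1.43), and Tsc22d1 fell by 0.62 on the log2 scale. Matrix genes rose in 11 of 39 cases with none lower. Thbs1, given above, led them, followed by the tenascin gene Tnc (1.45 ± 0.12) and fibronectin Fn1 (0.76 ± 0.16). The main fibrillar collagen gene Col1a1 was at 1503, 1274 and 1169 CPM untreated and 1542, 1532 and 1549 CPM treated (log2 0.23 ± 0.11, edgeR adjusted p = 0.158). Of 28 proteases and inhibitors, 8 rose and 3 fell: Serpinb2, an inhibitor of urokinase, had 1 count untreated and 42 treated, a ratio of 40.5 with an exact 95% interval of 6.89 to 1639, and Adamts15, a proteoglycan-cleaving protease, fell from 118, 106 and 118 to 29.4, 26.9 and 16.9 CPM (log2 -2.20 ± 0.18).

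BMP genes moved both ways. Of 26 tested, 4 fell and 4 rose. Id3, a dominant-negative partner of basic helix-loop-helix factors and a standard readout of BMP signalling, had the largest fall of the named genes, from 726, 783 and 815 CPM to 140, 124 and 120 CPM (0.166-fold, log2 -2.59 ± 0.12, edgeR adjusted p = 5.30e-22). Id1 fell from 62.9, 61.6 and 57.9 to 33.97, 23.6 and 23.5 CPM (log2 -1.14 ± 0.15), the ligand Bmp4 by 1.14 on the log2 scale, and the inhibitory Smad6 by 0.96. The rises included 2 secreted antagonists: Fst, encoding follistatin, moved from 44.9, 51.6 and 40.5 to 195, 195 and 197 CPM (log2 2.11 ± 0.13), and Grem1, encoding gremlin 1, rose by 1.06 ± 0.14. The receptor genes Bmpr1a and Bmpr2 rose too, by 0.49 and 0.45. The antagonist Chrd (0.48) and the ligands Bmp2 (0.72), Bmp5 (0.24) and Bmp6 (0.13) were not called. Of the genes called, antagonists and receptors were thus higher, and a ligand and BMP readouts lower.

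Wnt and Notch are further pathways of fibroblast patterning. Of 26 Wnt genes 2 rose (the receptor Fzd1 by 1.07 and Nkd2 by 0.99, the latter not called after thinning) and 2 fell (Wnt9a by 0.88 and Fzd2 by 0.75 on the log2 scale), and the general Wnt target Axin2 was at 8.82, 4.21 and 5.11 CPM untreated and 9.10, 9.73 and 9.71 CPM treated (log2 0.61 ± 0.31, edgeR adjusted p = 0.202). For Axin2 the depth gave 42 and 66 counts in the 2 groups. Of 13 Notch genes 5 rose and none fell, led by the ligand Jag1 (1.15 ± 0.28). Of 33 growth factors and receptors 9 rose, among them Gdnf (2.30) and Angptl4 (2.09), and 1, Vegfd, fell by 0.27 on the log2 scale, a call lost with only the compared libraries in the fit. Of 19 adhesion molecules 6 rose, led by the fibronectin receptor subunit Itga5 (89.8, 78.4 and 84.3 against 250, 229 and 257 CPM, log2 1.54 ± 0.10).

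**Figure D3:**
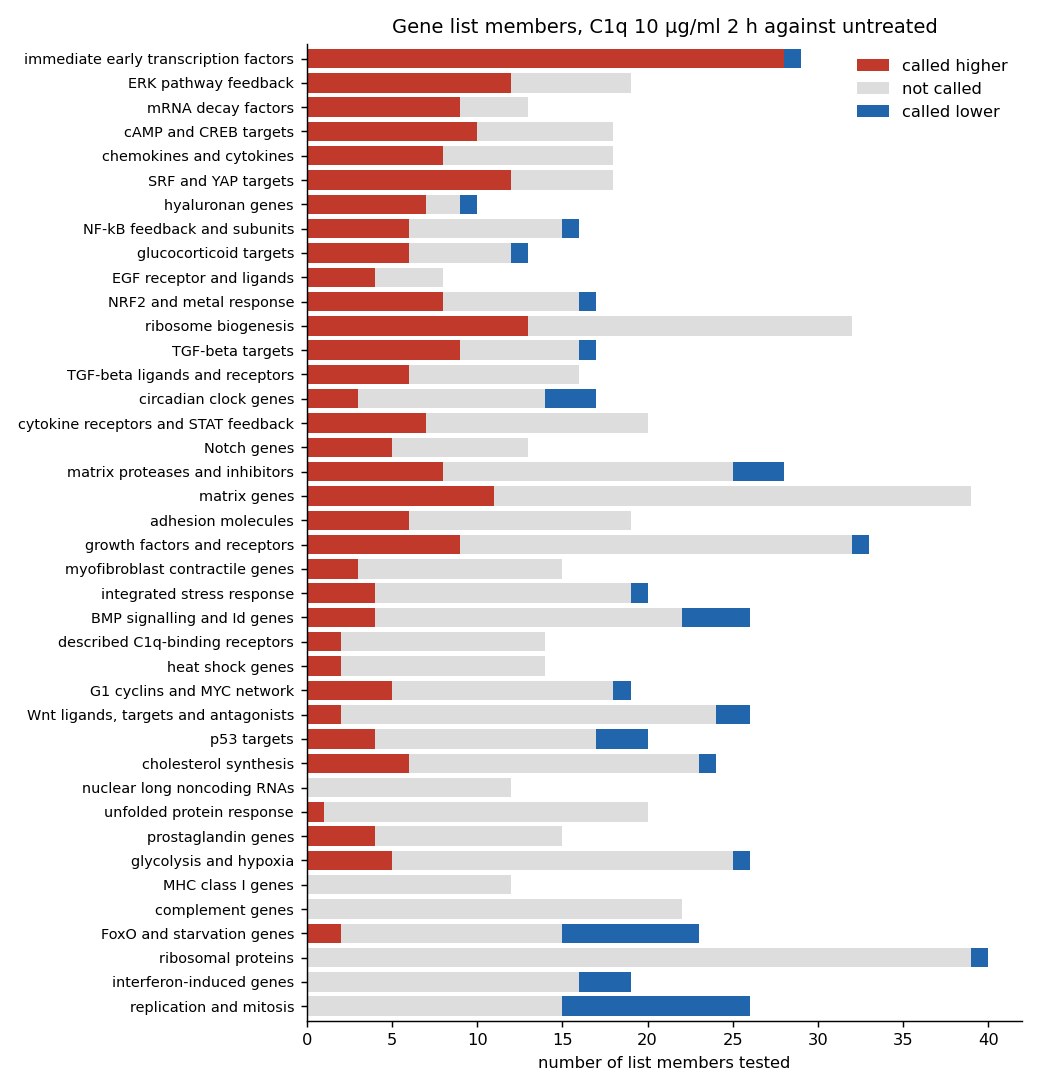
Number of tested members of each gene list (horizontal axis) called higher (red), not called (grey) and called lower (blue) in C1q at 10 µg/ml for 2 h against untreated, lists ordered by their median log2 difference and the cell type marker lists left out. The list of immediate early transcription factors heads the order with 28 of 29 members higher, and replication and mitosis genes end it with 11 of 26 lower.

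The genes of complement itself were not called: 0 of 22 tested passed edgeR's test, against 12.7% of all genes tested. C3, the central component, was at 61.7, 59.5 and 52.8 CPM untreated and 65.5, 73.6 and 48.6 CPM treated (log2 0.12 ± 0.15). Of 14 genes for described C1q-binding receptors, 2 rose, the collagen receptors Itga2 (0.54) and Ddr2 (0.22), where 7.64% of all genes tested rose. Itga2 was no longer called without untreated replicate 3 or treated replicate 2, and Ddr2 was not called in several alternatives.

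Of 23 FoxO and starvation genes, 8 fell, 2 rose and 13 were not called, with a median of -0.20. Pik3ip1, an inhibitor of PI3 kinase, was at 11.6, 12.1 and 9.37 CPM untreated and 3.85, 2.32 and 3.07 CPM treated (log2 -1.79 ± 0.30), Sesn1, a stress-induced inhibitor of mTORC1, fell from 27.3, 37.4 and 29.4 to 10.5, 8.80 and 11.3 CPM (log2 -1.60 ± 0.19), and Klf15 fell by 1.20 and Foxo1 by 0.91 on the log2 scale. The 2 rises, Irs2 and Arrdc4, lost their calls in some alternatives. Bmf, a pro-apoptotic BH3-only gene outside that list, fell from 10.0, 16.3 and 14.5 to 4.20, 1.85 and 3.58 CPM (log2 -2.01 ± 0.35). All treated libraries were below all untreated ones for these 3 genes with values in each library, which the naming rule requires.

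Genes of ribosome biogenesis rose in 13 of 32 cases with none lower and a median of 0.35, led by Tsr1 (37.3, 32.6 and 40.02 against 86.1, 74.6 and 68.0 CPM, log2 1.06 ± 0.12), Ppan and Wdr43. The 40 ribosomal protein genes had a median of -0.24, with 1 called, Rps12, which fell by 0.29 on the log2 scale and was not called under another scaling. Of the G1 cyclins and MYC network, 5 of 19 rose, led by Myc and the polyamine enzyme Odc1 (1.20), and 1 fell. No gene of replication and mitosis rose: 11 of 26 fell, with a median of -0.28. Aurka, a mitotic kinase, led the falls with 71.3, 73.1 and 60.9 CPM untreated and 33.6, 44.5 and 31.7 CPM treated (log2 -0.90 ± 0.14), followed by Cenpf (-0.67) and Ccna2 (-0.55). The called members of the ribosome biogenesis list were thus all rises, and those of the mitosis list all falls.

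Among RNA-binding factors that shorten the life of cytokine transcripts, 9 of 13 rose and none fell (median 0.73). Zfp36l2 was at 89.4, 98.9 and 95.4 CPM untreated and 314, 258 and 382 CPM treated (log2 1.75 ± 0.12), the RNase gene Zc3h12a rose by 1.32 (lost without treated replicate 3). Noct, a gene of the deadenylase family with rhythmic expression, was at 12.8, 13.2 and 8.94 CPM untreated and 67.6, 78.7 and 103 CPM treated (log2 2.83 ± 0.20). Clock genes were split, with 3 of 17 higher and 3 lower. The clock output factor Dbp fell from 27.3, 28.4 and 25.6 to 6.30, 6.48 and 9.71 CPM (log2 -1.87 ± 0.19) and Per3 by 0.87 on the log2 scale, while the repressor Nfil3 rose by 1.31. Nfil3 and Dbp are known to act on the same promoter elements in opposite ways.

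Of 13 glucocorticoid targets 6 rose and 1 fell. Sgk1, a kinase also induced by serum, was at 43.3, 47.9 and 39.6 CPM untreated and 250, 221 and 304 CPM treated (log2 2.57 ± 0.12, edgeR adjusted p = 5.30e-22), and Errfi1, given above, is on this list too. Zbtb16, a specific glucocorticoid target, went the other way, from 8.42, 7.37 and 10.6 to 2.45, 2.78 and 5.62 CPM (log2 -1.35 ± 0.30). Of 17 genes of the NRF2 and metal response 8 rose, led by the metallothionein Mt2 (1.06), and Nqo1 fell by 0.40 on the log2 scale, which was lost with only the compared libraries in the fit. Of 26 glycolysis and hypoxia genes 5 rose and 1 fell: hexokinase 2, Hk2, was at 24.5, 23.7 and 14.5 CPM untreated and 81.9, 72.2 and 60.3 CPM treated (log2 1.79 ± 0.17), the glucose transporter Slc2a1 rose by 1.05, and Ankrd37, a hypoxia target, fell by 2.04 on the log2 scale on 25 and 6 counts, a call lost without untreated replicate 3 or treated replicate 1.

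In the remaining lists, cholesterol synthesis had 6 of 24 higher and 1 lower, the integrated stress response 4 of 20 higher and 1 lower, p53 targets 4 of 20 higher and 3 lower, heat shock genes 2 of 14 higher and the unfolded protein response 1 of 20 higher. Over all genes tested 7.64% were called higher and 5.1% lower. None of 12 nuclear long noncoding RNAs was called. Of the marker lists, Pdpn (0.27) and Des (0.43) rose and 7 genes fell: Tcf21 (-0.85) of the fibroblast list, Lyz2 (-0.43), Egfl7 (-0.70), Sftpc (-0.86), Krt18 and Krt19 (both -0.39) and Lrrn4 (-0.46). Of these 9, Tcf21, Lyz2 and Sftpc kept their calls in every alternative with the same threshold and no minimum size, and the other 6 lost theirs in at least 1.

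The remaining genes among the 15 largest rises were Nipal1, a magnesium transporter gene (4.01, 2.11 and 3.41 against 31.9, 37.1 and 35.3 CPM, log2 3.39 ± 0.32), and Rnf217, a ubiquitin ligase gene (5.21, 7.89 and 6.81 against 32.9, 29.6 and 48.6 CPM, log2 2.48 ± 0.28). Among the falls several were genes for developmental transcription factors. Osr2, an odd-skipped family member, was at 13.6, 16.3 and 12.8 CPM untreated and 1.40, 5.09 and 1.53 CPM treated (log2 -2.42 ± 0.34). Atoh8, a basic helix-loop-helix factor, fell from 28.9, 25.8 and 37.5 to 5.95, 5.56 and 9.71 CPM (log2 -2.15 ± 0.24), and Gata5 from 54.5, 54.2 and 60.5 to 16.1, 11.6 and 19.9 CPM (log2 -1.83 ± 0.17). The histone gene H2ac24 fell by 1.70 on the log2 scale. Klhl8, Kmt5c, Trim68, Ccdc191 and Zc3h6 completed the 15, with log2 differences between -1.81 and -1.56 and untreated levels of 7.24 to 15.3 CPM.

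Set beside the other doses at 2 h, the middle dose gave few calls against 1 µg/ml. In the direct test 121 genes (0.839% of 14419) were called, 116 higher (0.804%) and 5 lower (0.0347%) at 10 µg/ml, and 1154 genes had an unadjusted p under 0.05. Of 29 immediate early genes 1 was called higher than at 1 µg/ml: Nr4a3, at 57.8, 86.3 and 63.2 CPM there (log2 difference 0.72 ± 0.13, edgeR adjusted p = 0.000446). The median log2 difference of the 29 was 0.33, against -0.01 over all genes. Nr4a1 was at 102, 102 and 87.3 CPM at 1 µg/ml (difference 0.55 ± 0.17, edgeR adjusted p = 0.183), below all 3 libraries at 10 µg/ml but not past the threshold. Fst was also higher, by 0.66 ± 0.11, and Noct by 0.69 ± 0.15. The count fell to 45, 67 or 77 genes when replicate 2 at 1 µg/ml, replicate 3 at 10 µg/ml or replicate 1 at 1 µg/ml was left out.

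The genes with the largest rises over 1 µg/ml under the naming rule were not on the immediate early list. Cebpb was at 12.4, 21.7 and 40.8 CPM at 1 µg/ml, overlapping the untreated libraries, and at 104, 159 and 168 CPM at 10 µg/ml (log2 2.49 ± 0.36, edgeR adjusted p = 3.02e-05). Rnf217 differed by 1.53 ± 0.23, Shb, an adaptor of receptor kinases, by 1.47 ± 0.23, and Sav1, a scaffold of the Hippo pathway, by 1.39 ± 0.19. Kctd2 (1.62) and Coq10a (1.43) also passed but lost their calls when single libraries were left out. The first 50 transcript bases of Cebpb, Kctd2 and Rnf217 held 76.0%, 73.6% and 78.0% G or C, against a median of 59.6% over genes tested and 62.3% over the 116 genes higher, while Shb (59.3%) and Sav1 (61.3%) lay near the median. With an offset for that GC share the differences of Cebpb, Rnf217, Shb and Sav1 were 2.46, 1.48, 1.48 and 1.39. The 5 genes lower than at 1 µg/ml were Zfp383 (-1.08), Cenph (-1.01), Rab8a (-0.47), Inmt (-0.40) and H1f0 (-0.30). Each of these 5 lost its call when replicate 2 at 1 µg/ml was left out and with only the compared libraries in the fit.

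Against 100 µg/ml more genes differed: 509 (3.53%) were called, 381 higher (2.64%) and 128 lower (0.888%) at 10 µg/ml, with 2204 at an unadjusted p under 0.05. Higher at the middle dose were 13 of 29 immediate early genes, 10 of 18 SRF and YAP targets and 7 of 18 chemokines and cytokines. So were 11 of 20 cytokine receptor and STAT feedback genes, 6 of 10 hyaluronan genes and 9 of 32 ribosome biogenesis genes. Has2 was at 18.5, 19.4 and 14.2 CPM at 100 µg/ml, below the 3 untreated libraries, and 1.97 ± 0.14 higher on the log2 scale at 10 µg/ml (edgeR adjusted p = 4.46e-14). Ptgs2 was at 45.8, 46.95 and 33.4 CPM (1.71 ± 0.13 higher at 10 µg/ml), Socs3 at 24.7, 33.2 and 24.7 CPM (1.82 ± 0.15 higher), and Thbs1 at 831, 928 and 853 CPM (1.39 ± 0.10 higher). Every library at 10 µg/ml was above every library at 100 µg/ml for these 4 genes, which the naming rule requires for Has2, Ptgs2 and Socs3. Cebpd, a relative of Cebpb, was 1.55 ± 0.12 higher at 10 than at 100 µg/ml, with its level at 10 µg/ml (243, 191 and 254 CPM) overlapping that of untreated cells (262, 265 and 249 CPM).

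Not all early genes differed between these doses. Nr4a1 was at 163, 174 and 94.8 CPM at 100 µg/ml, overlapping the middle dose (difference -0.04 ± 0.17, edgeR adjusted p = 0.948), and Atf3 and Egr1 also missed the threshold. Genes lower at 10 than at 100 µg/ml included Klf11, a TGF-beta-responsive repressor (2.45, 3.24 and 5.11 against 10.6, 10.5 and 12.1 CPM, log2 -1.65 ± 0.29), Bmf (-1.53 ± 0.38, lost without treated replicate 2 or without replicate 1 or 3 at 100 µg/ml), Dbp (-1.35 ± 0.21), Id3 (-0.76 ± 0.12) and Sesn1 (-1.07 ± 0.20). Ppp1r10, a phosphatase regulator, was 1.22 lower on the log2 scale than at 100 µg/ml and, at 39.6, 43.99 and 41.9 CPM, was not called against untreated cells. The count against 100 µg/ml was 295, 304 or 327 genes without replicate 1 or 3 at 100 µg/ml or replicate 1 at 10 µg/ml. The 3 comparisons share the libraries at 10 µg/ml, so their counts are not independent.

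**Figure D4:**
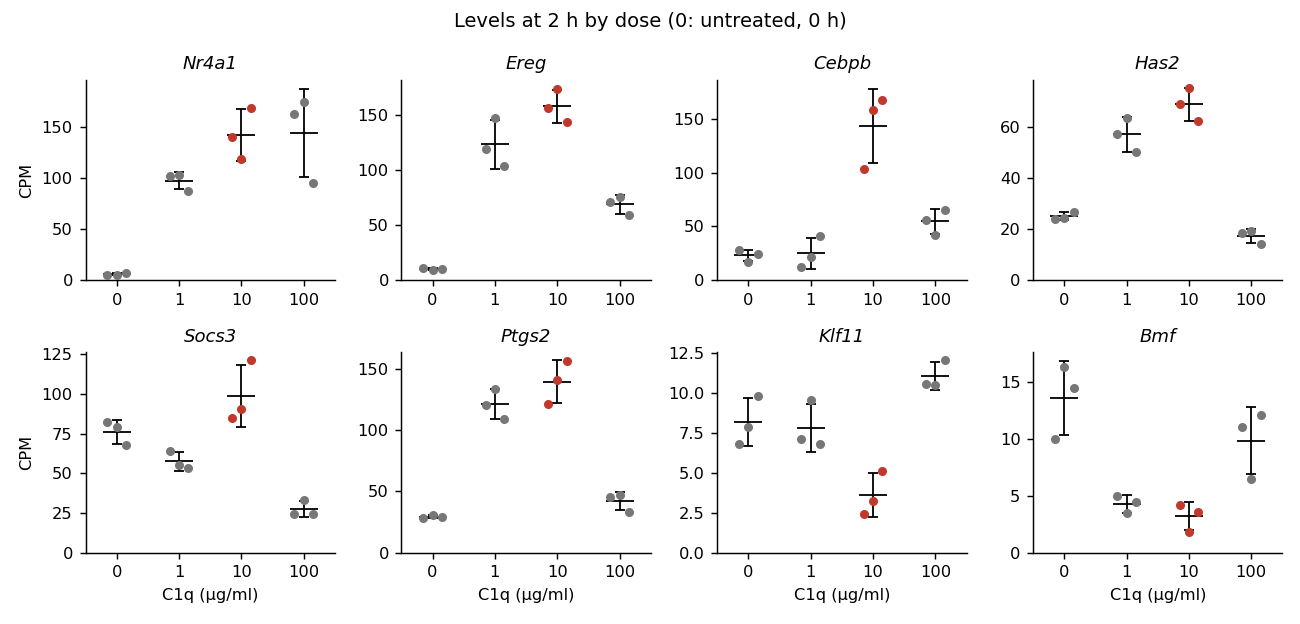
CPM of 8 genes by dose at 2 h, with 0 for the untreated libraries of 0 h; points are libraries (red at 10 µg/ml), the horizontal mark is the mean and bars are ± 1 SD of 3 libraries. Ereg, Has2, Socs3 and Ptgs2 have their highest mean at 10 µg/ml and Klf11 and Bmf their lowest, while Nr4a1 overlaps between 10 and 100 µg/ml.

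At the same dose the later times, which were described and not tested, lay closer to untreated levels for most of the genes with the largest changes. The 15 rises and 15 falls were picked by their difference at 2 h, so part of such a return follows from the choice. How many of all genes tested would meet the same rules at later times was not counted. For 14 of the 15 largest rises every library at 24 h was below every library at 2 h, and 12 of the 15 had a 24 h mean within 2-fold of the untreated mean. At 48 and 72 h that held for 7 and 8 of the 15. The columns of all 3 libraries at 24 h are spelled differently in the table's header and were matched by the serial number in their names. Nr4a1 stood at 142 ± 25.1 CPM (SD, n = 3) at 2 h, 6.19 ± 2.27 at 24 h, 31.2 ± 12.4 at 48 h and 4.15 ± 1.04 at 72 h. At 48 h every library was above every untreated one for 9 of the 15: Nr4a3, Nr4a1, Egr3, Ereg, Noct, Atf3, Cebpb, Sgk1 and Rnf217. Fos, below untreated at 2 h, was at 49.4 ± 6.51 CPM at 48 h, against 12.9 ± 0.987 at 24 h.

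Cebpb was the exception among the rises, at 144 ± 34.7 CPM at 2 h and 206 ± 33, 222 ± 66.8 and 266 ± 12.8 CPM at 24, 48 and 72 h. Its mean at 1 µg/ml also climbed with time, from 25.0 CPM at 2 h to 59.8, 147 and 216 CPM. Rnf217 stayed above untreated cells at 23.02, 23.6 and 20.8 CPM. Of the 15 largest falls, 14 were back above all 2 h libraries at 24 h; Id3 stood at 662 ± 38.3, 548 ± 59.2 and 701 ± 45.8 CPM at the later times, and Adamts15 at 251 ± 33.3, 166 ± 34.8 and 393 ± 25.2 CPM against 114 in untreated cells. The exception was H2ac24, which was lower still at 24 h (6.08 ± 1.09 CPM, against 12.95 at 2 h).

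**Figure D5:**
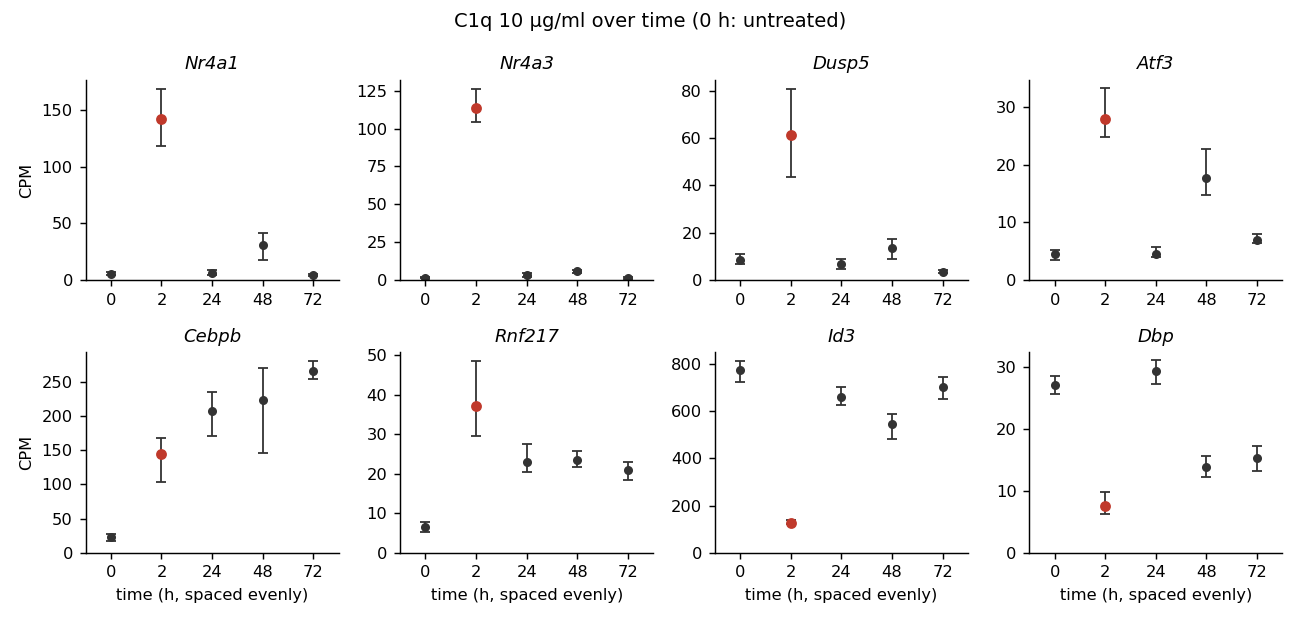
CPM of 8 genes at C1q 10 µg/ml over time, with 0 h for untreated cells and times spaced evenly; points are means (red at 2 h) and bars run from the lowest to the highest of 3 libraries. Nr4a1, Nr4a3, Dusp5 and Atf3 stand highest at 2 h, Cebpb stays high to 72 h, and Id3 is lowest at 2 h.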

How the data were processed

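The file deposited by the authors holds raw counts, whole numbers with no normalization, for 30012 gene names in 39 columns. Per the submitters' processing notes, cutadapt 2.1.0, Bowtie2 2.4.2 and GRCm38 were used. The counting tool, the annotation and the use of strand or molecular identifiers were not given in the sources used here. Genes with a near-identical copy, and antisense or overlapping genes, may therefore share reads. Columns were matched to samples by name, 9 of them (outside the 6 libraries) only by the serial number in a name with another spelling, and replicate numbers follow accession order. Replicate pairs differed by more than sampling noise (chi-square per degree of freedom of 1.49 to 4.24 over 6 pairs).

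Counts of all 39 libraries were fitted with edgeR 4.0.16 (R 4.3.3, quasi-likelihood, a mean per group, 13 groups) after its default filter, which left 14419 genes, and TMM scaling, with p-values adjusted by the Benjamini-Hochberg method over all genes at a threshold of 0.05. Besides 10 µg/ml at 2 h against untreated, the tests were of 10 against 1 and against 100 µg/ml at 2 h. The standard error is the size of the log2 difference over the square root of F. The libraries were taken by their labels, but the gene lists and tests were chosen with earlier results of these data known. Lists are described by counts and medians, with no test.

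Named genes had an adjusted p under 0.05, a mean log2 CPM of at least 3 and no overlap between groups: the 15 largest rises and falls against untreated and the 6 largest for each dose, without predicted genes, plus members of the 48 lists, at most the 3 largest in each direction and those that define the list. Promoter windows are RefSeq's (GRCm38.p6), matched by symbol, with windows for 11009 of the genes tested. Alternatives were DESeq2 1.42.0, RLE scaling, no filter, a robust fit, thinning to the smallest total, only the libraries compared, leaving out LOC118568312 (6.10% to 7.83% of counts in the 6 libraries), stricter thresholds and each library left out. An offset for the GC share of the first 50 transcript bases was added after the data were seen. On simulated counts for 10 µg/ml against untreated (14081 genes), 38.8%, 77.6% and 97.0% of the genes given a 1.5-, 2- or 4-fold change passed the test. Figures were drawn with matplotlib 3.10.9. Further list members, such as Jun, Dusp6, Foxo1 and Bmp2, are given beyond the naming rule, and some are counted but not named.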

Additional observations from a re-analysis of the deposited data

How the results depend on the processing

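No gene picked by the naming rule, or as a leading list member, changed direction under the alternatives run. Other genes given in the text, such as Nr4a2, Arc, Egr1, Jun and Dusp6, were not followed through the alternatives. Against untreated cells 1013 genes (717 higher, 296 lower) passed at an adjusted p under 0.01 and 393 (254 and 139) at a log2 size of at least 1. Against 1 µg/ml these counts were 73 (71 and 2) and 24 (22 and 2), and against 100 µg/ml 246 (200 and 46) and 113 (66 and 47). DESeq2 called 462 genes lower than untreated and 82 lower than at 100 µg/ml. With only the compared libraries in the fit, 50 genes differed from 1 µg/ml, 50 higher and 0 lower, and 240 were higher than at 100 µg/ml. Without LOC118568312, 3 genes were lower than at 1 µg/ml. Leaving out 1 library gave 1334 to 1510 calls against untreated (802 to 901 higher, 532 to 633 lower), 45 to 177 against 1 µg/ml (44 to 170 higher, 1 to 7 lower) and 295 to 411 against 100 µg/ml (218 to 301 higher, 67 to 110 lower). These fits have fewer samples or a stricter rule, except DESeq2 and the run without LOC118568312, for which the cause was not tested. With the GC offset 1839 genes were called against untreated, 1145 higher and 694 lower. No paired analysis was possible because the labels carry no replicate numbers. Small differences can be missed: of simulated 1.5-fold changes 38.8% were called, so genes not called may still differ. The changed genes, 66 or 67 per fold size, were drawn above a minimum count, and depth was not varied. The simulated shares therefore need not hold for the real comparison. Genes under 10 CPM rest on few counts.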
